A study of Mus musculus with 6 samples.

Results

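The clustered histone genes are the protein-coding genes whose GENCODE M21 symbols begin with Hist1h, Hist2h, Hist3h or Hist4h. The symbol alone chose them, and 67 of the 56305 genes in the table met the rule. They encode 6 linker histones H1, 18 H2A, 18 H2B, 12 H3 and 13 H4. The Hist1 cluster on chromosome 13 held 54 of them, Hist2 on chromosome 3 held 10, Hist3 on chromosome 11 held 2 and Hist4 on chromosome 6 held 1. RNA-seq was performed on whole liver of 5-week-old male mice, killed at ZT6 (6 h after lights on) with food freely available. The groups were 3 wild-type mice (WT) and 3 mice with a lasting, liver-specific deletion of Vps15 (AlbCre+;Vps15 f/f, called Vps15LKO), the regulatory subunit of class 3 phosphatidylinositol-3-kinase. Cre was driven by the albumin promoter, which is active in hepatocytes, and which other liver cells had lost Vps15 was not measured here.

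As background, clustered histone genes supply most of the histones that package newly made DNA, and they are transcribed mainly in S phase. Unlike almost every other messenger RNA, their usual product ends in a short stem-loop and carries no poly(A) tail. The stem-loop is bound by Slbp, and the end is cut by a machinery that includes the U7 snRNP. Several of these genes can also make a longer, polyadenylated transcript in cells that do not divide. The libraries here were enriched with oligo-dT, so transcripts without a tail entered them poorly, and a level below is a level of RNA captured in this way.

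The stem-loop was searched for on the sense strand of the GENCODE M21 transcripts (GRCm38) as GG, 2 bases of any kind, CT, 1 base, TT, 1 base, AG, 2 bases and CC. It stood in the annotated transcripts of 44 members (65.7%), as against 0.433% of all protein-coding genes. It began 22 to 59 bases after the stop codon. The commonest form, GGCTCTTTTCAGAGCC, was found in 26 members, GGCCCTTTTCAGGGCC in 7 and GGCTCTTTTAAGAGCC in 6. The sequences follow for the members with the letters whose fold changes the results turn on, and for Hist1h4i as an H4 form. They carry 5 flanking bases on each side (3 after that of Hist1h2ap, where the transcript ends), and the matched letters are in capitals.
Hist1h1c: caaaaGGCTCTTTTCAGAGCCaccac
Hist3h2a: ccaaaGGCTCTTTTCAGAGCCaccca
Hist2h2aa1: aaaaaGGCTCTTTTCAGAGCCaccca
Hist2h2aa2: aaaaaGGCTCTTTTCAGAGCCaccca
Hist2h2ac: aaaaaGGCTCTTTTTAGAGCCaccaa
Hist2h3c1: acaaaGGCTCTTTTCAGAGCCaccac
Hist1h2ag: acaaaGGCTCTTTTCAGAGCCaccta
Hist1h2ao: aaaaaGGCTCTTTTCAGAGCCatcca
Hist1h2ap: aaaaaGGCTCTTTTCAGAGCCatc
Hist1h4i: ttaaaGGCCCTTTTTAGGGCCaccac

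Hist1h2bc, the member of highest level, has none of these letters in its annotated transcript. That transcript has 2 exons and a 3′ UTR of 742 bases, and the letters of a poly(A) signal, AATAAA (in capitals), lie in it, 296 bases after the stop codon. They stand 441 bases before the annotated end, so they are a letter match and not a signal placed at that end.
Hist1h2bc: atgtatatatAATAAAtgtcatgtaa

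Of the other members without the letters, those with an annotated 3′ UTR of at most 2 bases could not show them. This was so for 15 of the 23 members without them. In 22 members the annotated transcript ran more than 100 bases past the stem-loop, and in 16 members AATAAA or ATTAAA followed it. Hist1h1c, for example, continued for 840 bases past its stem-loop and Hist3h2a for 1643 bases, both with such letters, whereas Hist1h2ao ended 31 bases past it.

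Clustered histone RNA was a small part of each library, and 2 genes made up most of it. Together the 67 members took an RPM (reads scaled to a common total of reads per library) of 101, 94.3 and 133 in WT and of 151, 162 and 154 in Vps15LKO. Hist1h2bc and Hist1h1c gave 80.7% of these reads in WT and 77.5% in Vps15LKO. Per kb of exon, the mean normalized count over all livers of Hist1h2bc was 969 and that of Hist1h1c was 452. The next levels were 87.2 for Hist2h2aa1 and 61.3 for Hist2h2aa2.

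At the other end, 4 members (Hist1h1a, Hist1h2aa, Hist1h2bm and Hist1h4m) had no read in any liver, and 38 members had at most 3 reads in every liver. A count of 0 in a liver allows up to 3 reads. Summed over these 38 members, the normalized counts were 14.6, 17.5 and 18.9 in WT and 26, 18.6 and 26.9 in Vps15LKO. Altogether 45 members had a mean below 5 normalized counts, with no more than 6 reads in any liver. Of the 41 of these with a read, limma without a filter called 2 higher in Vps15LKO, beside 23.4% of all 29328 genes in that fit, and 0 lower, beside 18%. These were Hist3h2ba, with 0 reads in every WT liver and 2, 5 and 3 in Vps15LKO, and Hist1h2bp, with 0 in every WT liver and 1, 1 and 3 in Vps15LKO. For the others a difference between the genotypes was not detected at this depth. The Hist4h4 gene, the only member of its cluster, was among these, with 0 to 2 reads per liver.

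The members were also grouped by the annotated end of the transcript. Per kb of exon, the median level was 2.61 in the 25 members with a 3′ UTR of at least 200 bases. It was 1.62 in the 27 members with a shorter one of at least 3 bases and 1.61 in the 15 members with at most 2 bases. A mean of 5 normalized counts was reached by 13, 8 and 1 of them, and 18, 4 and 0 held AATAAA or ATTAAA in the annotated 3′ UTR. The ranges overlapped widely, and longer exons also collect more reads, so these values describe the members without a test.

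**Figure D1:**
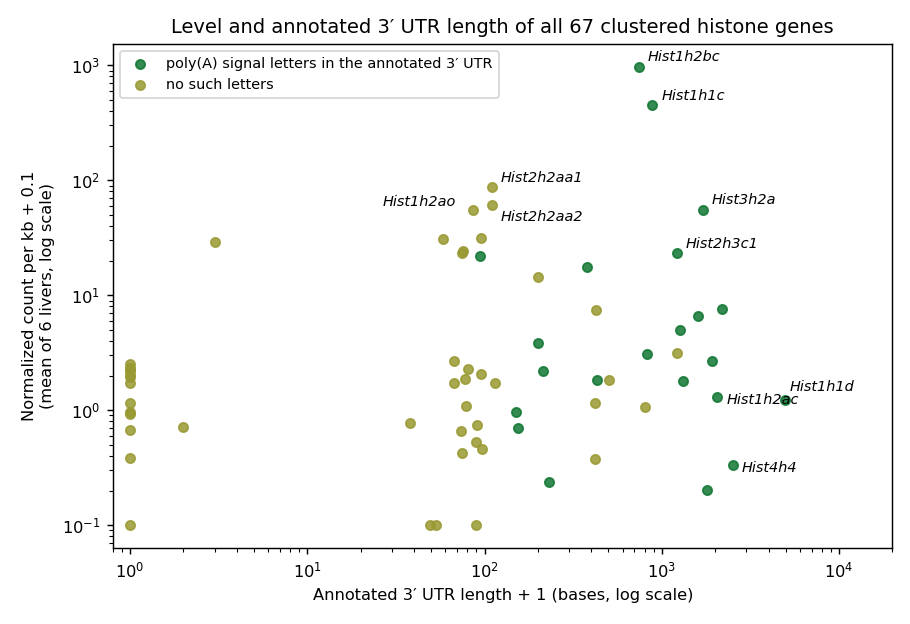
Each point is 1 of the 67 clustered histone genes. The x axis is the annotated 3′ UTR length in bases and the y axis the normalized count per kb of exon (mean of 6 livers), both on log scales, and colour marks poly(A) signal letters. Hist1h2bc and Hist1h1c stand apart at the top, and several long 3′ UTRs, such as that of Hist4h4, belong to genes near 0.

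The question put to these libraries was whether clustered histone RNA differed between the genotypes. The values are normalized counts, that is, reads divided by the DESeq2 size factor of the library. The total of reads was similar, 16137093 to 18110223 in WT and 17937021 to 18088708 in Vps15LKO. After normalization, however, 1 read counted as 1.25 to 1.35 in WT and as 0.707 to 0.810 in Vps15LKO. A direction can therefore differ between normalized counts and shares of reads. Scaling to total reads moved the median of the log2 fold changes over all tested genes by 0.72 relative to the size factors, and no other scaling tried moved it by more than 0.10. In bulk liver, fewer cells of a type and less RNA per cell cannot be told apart.

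The targeted gene Pik3r4, which encodes Vps15, stood at 508, 573 and 460 in WT and 341, 362 and 355 normalized counts in Vps15LKO. This was a log2 fold change of -0.54 ± 0.11 (SE, n = 3 per group, limma, Benjamini-Hochberg adjusted p = 0.00207). Its reads as such were 383, 459 and 341 in WT and 446, 447 and 502 in Vps15LKO, so it was lower in normalized counts and not in reads.

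The summed normalized count of all 67 members was 2395, 2132 and 2887 in WT and 2075, 2368 and 1964 in Vps15LKO. The groups overlapped and the ratio of the means was 0.864, while in RPM, where the groups did not overlap, the ratio was 1.42. Without Hist1h2bc and Hist1h1c the sum was 477 ± 121 in WT and 480 ± 35.5 in Vps15LKO (SD, n = 3), and in RPM 21.2 ± 6.19 and 35.1 ± 2.48. The sums by class were unlike each other. Linker histone RNA stood at 589 ± 224 in WT and 851 ± 82.5 in Vps15LKO, and in RPM at 26.3 ± 10.95 and 62.0 ± 2.66. For H2A the sums were 267 ± 48.7 and 318 ± 16.1, and in RPM 11.9 ± 2.62 and 23.3 ± 2.49. H2B RNA was at 1503 ± 105 and 897 ± 135 in normalized counts. In RPM, however, H2B was at 66.4 ± 5.03 and 65.2 ± 5.97. The H3 sums were 74.7 ± 38.0 and 36.0 ± 11.2, and in RPM 3.34 ± 1.83 and 2.61 ± 0.662. The H4 sums turned with the scale, from 36.8 ± 13.7 and 34.1 ± 5.70 to an RPM of 1.64 ± 0.673 and 2.48 ± 0.278.

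With at least 20 normalized counts required in at least 3 livers, 9 of the 67 members were tested among 15430 genes, and 58 were not. Calling a gene took 2 criteria, an adjusted p below 0.05 and a change of 1.2-fold or more. The members called higher in Vps15LKO were Hist1h1c, Hist3h2a, Hist1h2ao and Hist1h2ap. Those called lower were Hist1h2bc, Hist2h2aa1 and Hist2h2aa2, and the 2 not called were Hist2h2be and Hist2h3c1. Of all tested genes, 33.5% were called higher, 33% lower and 66.5% in either direction, against which the members' 4, 3 and 7 of 9 are to be read. Hist1h2ao and Hist1h2ap passed the filter only through the Vps15LKO livers and Hist2h2aa2 only through the WT livers, and so had to differ.

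A lower filter, an average of 5 normalized counts or more, let 22 members be tested among 18165 genes. Of these, 6 were called higher, adding Hist1h2ag and Hist1h2ah, and 4 lower, adding Hist2h2ac, and 12 were not called. The shares of all genes were 32.9% higher and 29.4% lower (62.3% in either direction). Hist1h2ag, Hist1h2ah, Hist1h2ao and Hist1h2ap reached this mean only through the Vps15LKO livers and Hist1h1e only through the WT livers, so the counts support nothing about the members as a group. With edgeR on the recovered reads of the same genes, 5 members were higher and 5 lower, as Hist1h1c was not called and Hist2h3c1 was. The shares of all genes were then 33.4% and 29.1%, and 34.9% and 31.3% under the first filter. The groups did not overlap for 11 of the 22 members, 5 with Vps15LKO above WT and 6 below. The shares of all genes were 36.4% and 33.2% under the lower filter and 36.4% and 36.8% under the first.

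**Figure D2:**
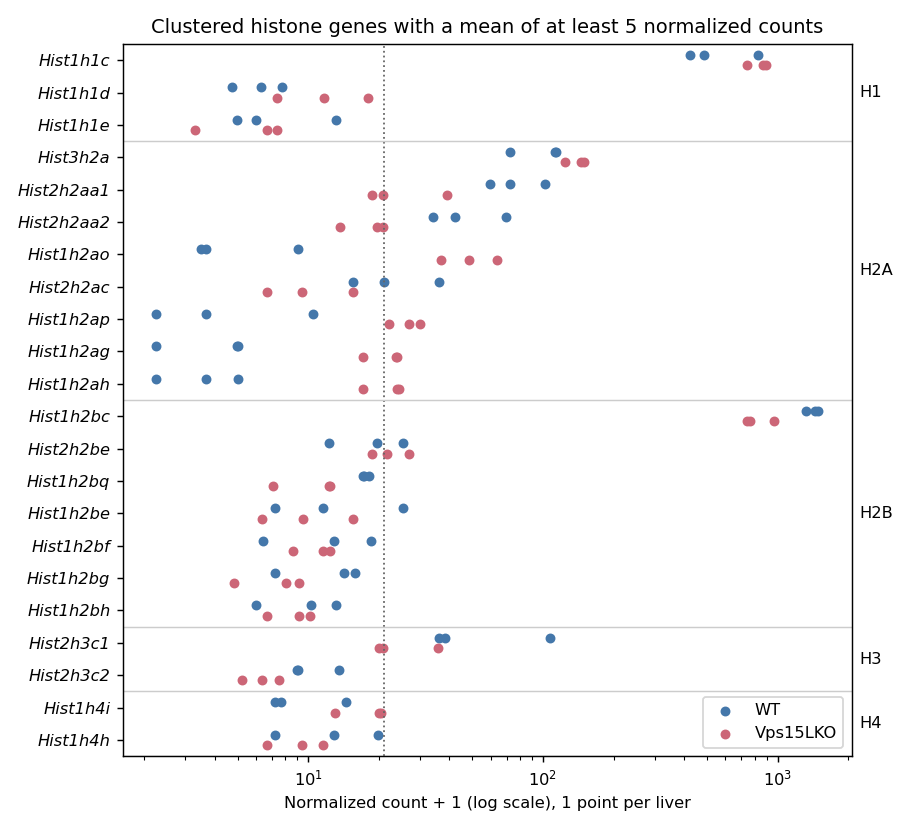
The normalized count plus 1 (log scale) of the 22 members averaging 5 or more is shown for each liver, by histone class, with WT in blue and Vps15LKO in red and a dotted line at 20 normalized counts. The groups stand fully apart for 5 genes with Vps15LKO higher (Hist3h2a, Hist1h2ag, Hist1h2ah, Hist1h2ao and Hist1h2ap) and 6 with Vps15LKO lower (Hist1h2bc, Hist1h2bq, Hist2h2aa1, Hist2h2aa2, Hist2h3c1 and Hist2h3c2), and overlap for the other 11.

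H1 binds the DNA that enters and leaves the nucleosome. Hist1h1c (chromosome 13, 23738808 to 23740367, plus strand, 1 exon) had normalized counts of 483, 422 and 826 in WT and 869, 888 and 743 in the Vps15LKO livers. WT replicate 3 lay within the range of the Vps15LKO livers, so the groups overlapped. The log2 fold change was 0.59 ± 0.23 (SE) with an adjusted p of 0.0452 in limma. The call was lost in 8 of 21 alternatives, 5 of them the omission of 1 liver, with log2 fold changes of 0.39 to 0.88 over all 6 omissions. Without WT replicate 3 the value was 0.88 (limma, adjusted p = 0.000396), and in each of the other omissions the adjusted p was above 0.05. Hist1h1d and Hist1h1e were tested only under the lower filter and were not called. Hist1h1d stood at 5.30, 3.75 and 6.74 in WT and 10.7, 17.0 and 6.37 in Vps15LKO, a log2 fold change of 0.91 ± 0.43 (limma, adjusted p = 0.0956). Hist1h1e stood at 3.98, 4.996 and 12.1 in WT and 2.29, 5.67 and 6.37 in Vps15LKO, a log2 fold change of -0.43 ± 0.52 (limma, adjusted p = 0.504). Hist1h1b, the next H1 gene by level, had 0 reads in every WT liver and 3, 0 and 2 in Vps15LKO. Hist1h1e shares 496 bases of exon on the same strand with Hist1h2be, so their reads are uncertain.

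H2A genes moved in both directions. Hist1h2ao, on chromosome 13 at 21810465 to 21810944, had normalized counts of 2.65, 2.50 and 8.09 in WT and 47.3, 35.7 and 62.9 in the Vps15LKO livers. Every Vps15LKO liver was above every WT liver, with a log2 fold change of 3.31 ± 0.44 (limma, adjusted p = 0.000217), the largest rise among the tested members. Hist1h2ap stood at 2.65, 1.25 and 9.44 in WT and 26, 21.1 and 29.0 in Vps15LKO, a log2 fold change of 2.57 ± 0.56 (limma, adjusted p = 0.00342). Under quantile normalization its value was 0.88 and the call was lost (limma, adjusted p = 0.14).

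Their near relatives showed the same order of groups. Hist1h2ag had normalized counts of 3.98, 1.25 and 4.04 in WT and 22.9, 16.2 and 22.6 in the Vps15LKO livers. Hist1h2ah had 2.65, 1.25 and 4.04 in WT and 22.9, 16.2 and 23.3 in Vps15LKO. Their log2 fold changes were 2.48 and 2.64, and in limma on every gene with a read in at least 1 liver the adjusted p was 0.00145 and 0.000828. In that fit it was 0.000208 for Hist1h2ao and 0.00384 for Hist1h2ap. Summed, these 4 genes stood at 11.9, 6.25 and 25.6 in WT and 119, 89.1 and 138 in Vps15LKO, or 9, 5 and 19 reads against 156, 110 and 195.

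These 4 genes are not independent measurements. Of the 431 windows of 50 bases in Hist1h2ao, 403 also occur in another gene, as do 403 of 433 in Hist1h2ap, 344 of 436 in Hist1h2ag and 328 of 356 in Hist1h2ah. The reads of Hist1h2ag were 3, 1 and 3 in WT and 30, 20 and 32 in Vps15LKO, and those of Hist1h2ah were 2, 1 and 3 and 30, 20 and 33. How the authors' counting treated reads that match several genes is not given in the sources used here, so which copy rose is uncertain. A predicted miRNA gene on the opposite strand of Hist1h2ao, Gm19658, had 191 reads in all beside 205 for Hist1h2ao, although they share only 138 bases of exon. A kit that marks the strand was used, but whether the counting used the strand is not stated either.

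Hist3h2a (chromosome 11, 58954685 to 58956830, plus strand) had normalized counts of 71.6, 111 and 113 in WT and 124, 145 and 149 in the Vps15LKO livers. The groups did not overlap, with a log2 fold change of 0.52 ± 0.20 (limma, adjusted p = 0.045), but 8 of 21 alternatives lost the call. The value was 0.11 under quantile normalization (limma, adjusted p = 0.605) and 0.31 without WT replicate 1 (limma, adjusted p = 0.106). Trim17 on the same strand shares 708 bases of exon with Hist3h2a and had 691 reads in all beside 779, so reads of the 2 genes were not told apart.

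In the Hist2 cluster 3 of the 4 H2A genes were called lower under the lower filter, beside 29.4% of all genes, 2 of the 3 being near-identical copies. Hist2h2ab, with at most 1 read per liver, was not tested. Hist2h2aa1 (chromosome 3, 96245497 to 96246082) stood at 101, 58.7 and 71.4 in WT and 19.9, 38.1 and 17.7 in Vps15LKO. Its log2 fold change of -1.62 ± 0.33 (limma, adjusted p = 0.00224) was the largest fall among the tested members, and it kept the call in all 20 alternatives that tested it. With 20 normalized counts required in every liver it was not tested. Hist2h2aa2 (96239749 to 96240276 on the same chromosome, the other strand) stood at 33.1, 41.2 and 68.7 in WT and 19.9, 18.6 and 12.7 in Vps15LKO. Here the log2 fold change was -1.39 ± 0.32 (limma, adjusted p = 0.00481, and 0.00693 in the fit on every gene with a read), and it was -0.69 under total-read scaling, where the call was lost (limma, adjusted p = 0.0831). At least 96.3% of the 50-base windows of both genes occur elsewhere, so they cannot be read as separate measurements.

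Hist2h2ac was tested under the lower filter and had normalized counts of 14.6, 19.99 and 35.1 in WT and 8.40, 14.6 and 5.66 in the Vps15LKO livers. Its groups overlapped by 1 value, with a log2 fold change of -1.2 ± 0.43 (limma, adjusted p = 0.0367). In the fit on every gene with a read it was not called (limma, adjusted p = 0.0576). Summed over its 10 members, the Hist2 cluster stood at 240 ± 72.3 in WT and 106 ± 32.2 in Vps15LKO (SD, n = 3). In RPM the sums were 10.7 ± 3.58 and 7.67 ± 1.80.

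Among H2B genes, Hist1h2bc (chromosome 13, 23684199 to 23692908, plus strand) carried most of the RNA. It had normalized counts of 1493, 1315 and 1445 in WT and 761, 964 and 743 in the Vps15LKO livers, so all Vps15LKO livers were below all WT livers. The log2 fold change was -0.79 ± 0.12 (limma, adjusted p = 0.000411) and lay between -0.91 and -0.73 when 1 liver was left out. The reads themselves were 1126, 1053 and 1072 in WT and 996, 1189 and 1051 in Vps15LKO. Under total-read scaling the value was -0.07 and not called (limma, adjusted p = 0.566), so the fall of Hist1h2bc was one of normalized counts and not of reads. It kept its share of reads while the median of all tested genes was 0.70 higher on that scale.

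The other 17 H2B genes together stood at 85.4 ± 17.5 in WT and 74.4 ± 13.3 in Vps15LKO, and the order turned in RPM, with 3.78 ± 0.871 and 5.42 ± 0.735. Hist2h2be, with a 3′ UTR of 2192 bases, had normalized counts of 18.6, 11.2 and 24.3 in WT and 20.6, 25.9 and 17.7 in the Vps15LKO livers. The fitted log2 change was 0.28 ± 0.34 (limma, adjusted p = 0.483) and turned to -0.98 under quantile normalization, where it was called lower (limma, adjusted p = 0.0288). Hist1h2bq was at 17.2, 16.2 and 16.2 in WT and 6.11, 11.3 and 11.3 in Vps15LKO. The groups did not overlap, but under the lower filter the log2 fold change of -0.77 ± 0.33 missed the threshold (limma, adjusted p = 0.0682). Hist1h2be stood at 10.6, 6.25 and 24.3 in WT and 5.35, 14.6 and 8.49 in Vps15LKO, and its log2 fold change of -0.39 ± 0.53 was not called (limma, adjusted p = 0.539). Nor were Hist1h2bf, Hist1h2bg and Hist1h2bh, with log2 fold changes between -0.74 and -0.10.

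Of the 12 H3 genes, Hist2h3c1 (chromosome 3, 96246685 to 96248509) had the highest level, 37.1, 35.0 and 106 in WT and 19.1, 34.8 and 19.8 in Vps15LKO. Its log2 fold change of -1.10 ± 0.44 missed the threshold in limma (adjusted p = 0.0538), while edgeR called it lower at -1.23 (adjusted p = 0.0388) and DESeq2 at -1.28 (adjusted p = 0.0115). WT replicate 3 was far above the other livers, and without it the value was -0.59 (limma, adjusted p = 0.138). Hist2h3c2 was lower in every Vps15LKO liver (5.35, 6.48 and 4.24) than in WT (7.96, 12.5 and 8.09) but was not called (limma, adjusted p = 0.122). The next H3 genes by level were below both filters. Hist1h3d had 1, 0 and 1 reads in WT and 0, 3 and 3 in Vps15LKO, and Hist1h3g had 0, 1 and 1 and 3, 0 and 2. The transcript Gm20634 spans Hist2h3c1 and most of Hist2h2aa1, and in 5 of 6 livers its reads equalled the sum of the reads of both. In the remaining liver, WT replicate 3, the sum was 132 and Gm20634 had 120. A read in this region was therefore counted for more than 1 gene.

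H4 RNA was low throughout. Hist1h4i had normalized counts of 6.63, 6.25 and 13.5 in WT and 19.1, 19.5 and 12 in the Vps15LKO livers, with a log2 fold change of 0.91 ± 0.38 (limma, adjusted p = 0.0647). Hist1h4h had 11.9, 6.25 and 18.9 in WT and 8.40, 10.5 and 5.66 in Vps15LKO, with a 95% interval of -1.46 to 0.55 for the log2 fold change. The other 11 H4 genes had means below 5. The highest of these were Hist1h4d, with 2, 5 and 4 reads in WT and 4, 1 and 3 in Vps15LKO, and Hist2h4, with 4, 0 and 5 and 1, 2 and 3.

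**Figure D3:**
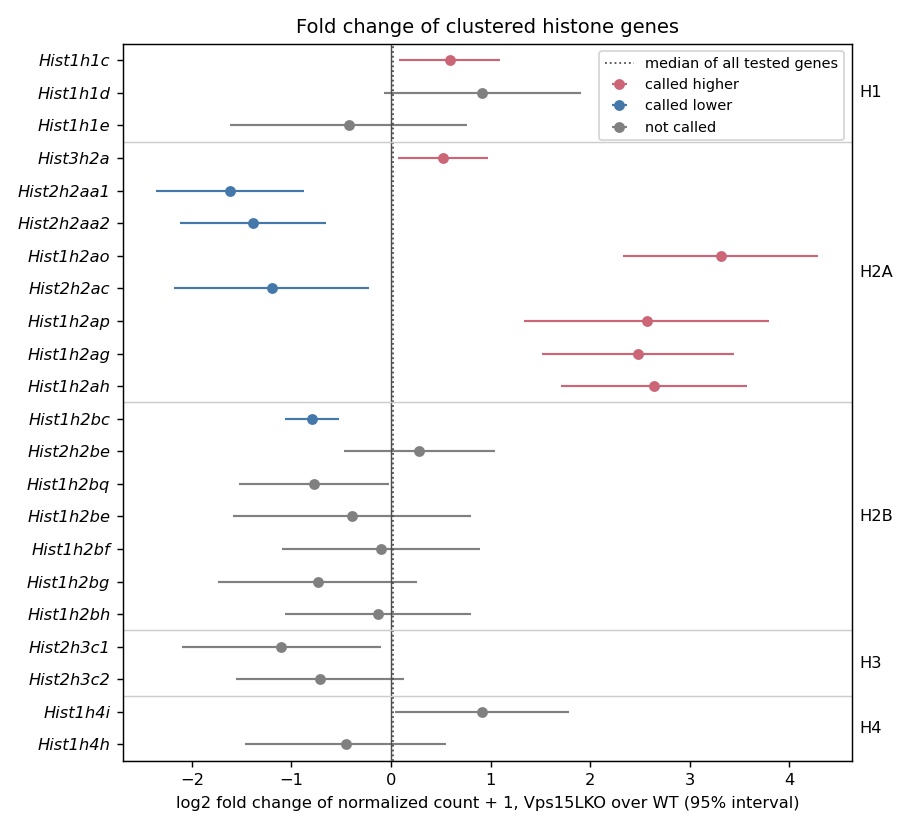
Points are log2 fold changes (Vps15LKO over WT, from limma under the lower filter) of 22 members and bars their 95% intervals, with red for called higher, blue for called lower and grey for not called. The 4 Hist1 H2A genes lie between 2.48 and 3.31, and the 3 Hist2 H2A genes tested between -1.62 and -1.2.

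The order of the livers within a group was similar across members. Of the 22 members with a mean of at least 5, WT replicate 3 was the highest WT liver for 17 (77.3%), beside 34% of all 18165 genes with such a mean. Vps15LKO replicate 2 was the highest Vps15LKO liver for 14 (63.6%), beside 39.5% of those genes. These members overlap in sequence, so the counts are a description.

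Among RNAs of other genes that lack a long poly(A) tail, Rn7sk was unlike between livers. Rn7sk, a nuclear RNA that holds the elongation factor P-TEFb inactive, had normalized counts of 3.98, 17.5 and 41.8 in WT and 63.4, 50.2 and 67.2 in the Vps15LKO livers. The fitted log2 change was 1.95 ± 0.66 (limma, adjusted p = 0.028). The call was lost under quantile normalization and in 3 of the 6 omissions of 1 liver (WT replicate 2, Vps15LKO replicate 1 or Vps15LKO replicate 3). Rn7sk was the only 1 of 8 listed RNAs of this kind to be tested. The 8 RNAs summed to 10.6, 25.0 and 60.7 in WT and 74.8, 57.5 and 80.6 in Vps15LKO, and 3 of them were at 0 in every liver. Rn7sk made up most of each Vps15LKO sum. Rpph1, the next by level, averaged 7.95 in WT and 7.47 in Vps15LKO, and Rmrp, Terc and Rnu11 had at most 5 reads in any liver. Whether carry-over of RNA without a tail had a part in the members' values was not tested.

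Neighbouring histone genes could stand at unlike levels. In 12 pairs, all of 1 H2A and 1 H2B gene, the starts lay back to back at 176 to 306 bases from each other. Hist1h2ac and Hist1h2bc start 251 bases apart, yet their mean normalized counts per kb in WT were 0.88 and 1226. Hist1h2bq and Hist1h2ao start 268 bases apart. Per kb, the mean level of Hist1h2bq was 8.21 in WT and 4.76 in Vps15LKO, and that of Hist1h2ao was 9.19 in WT and 101 in Vps15LKO. Beside Hist1h2ag, at 6.37 per kb in WT and 42.4 in Vps15LKO, Hist1h2bj stood at 1.85 and 3.33.

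**Figure D4:**
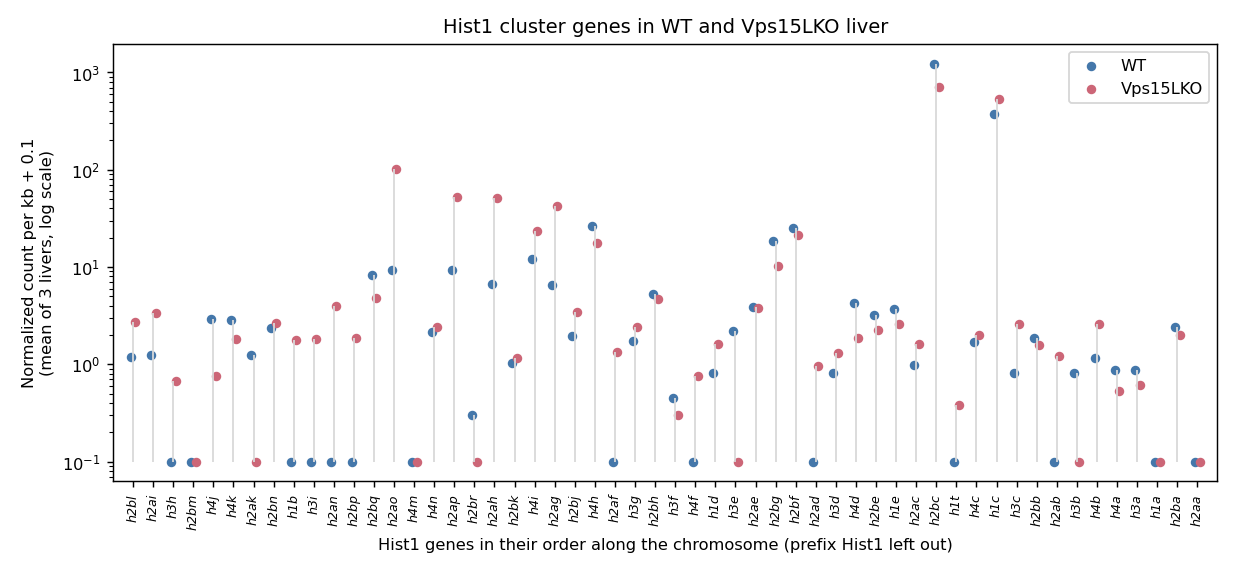
The 54 Hist1 genes are drawn in their order along the chromosome, with the mean normalized count per kb of exon plus 0.1 (log scale) in WT (blue) and Vps15LKO (red), and points at the bottom are at 0. Single genes rise above their neighbours, with Hist1h2bc and Hist1h1c highest and Hist1h2ao, Hist1h2ap, Hist1h2ah and Hist1h2ag above their WT points.

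Promoter sequences from RefSeq (GRCm38.p6, windows of 300 bases around the start) matched 62 members and were searched on both strands. The octamer ATTTGCAT, a site for Oct1 that is known from H2B promoters, stood in 13 of them (21%), 7 H2A and 6 H2B, beside 1.74% of all 32851 promoters. CCAAT stood in 85.5% of the members' promoters, beside 37.4% of all, and in 3 of the 12 H4 promoters. TATAAA stood in 56.5%, beside 13.6% of all. Windows of paired genes overlap and count a shared motif in both.

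Other genes of histone supply did not move as 1 group. Of all 15430 tested genes, 33.5% were called higher and 33% lower, and under total-read scaling 10300 and 1712 genes were. The counts of each list are to be read beside these. Of the factors for transcription, end processing and decay of histone RNA, 16 of 18 genes were tested, with 1 called higher, 3 lower (15 and 0 under total-read scaling) and a median log2 fold change of -0.14, beside -0.02 for all tested genes. Slbp averaged 172 ± 10.5 in WT and 201 ± 9.8 in Vps15LKO (normalized counts, SD, n = 3) and was not called (limma, adjusted p = 0.114). Npat, the coactivator of clustered histone transcription, stood at 172 ± 33.1 and 219 ± 16.3 and was not called (limma, adjusted p = 0.0752). Upf1, a helicase of histone RNA decay, was called lower (1406 ± 94.5 and 1050 ± 41.2), whereas Sympk, Srrt and Cpsf3 were not called.

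Histone variants are encoded outside the clusters, mostly by polyadenylated messages made independently of replication. Of the 11 tested, 5 were called higher and 3 lower (10 and 0 under total-read scaling), with a median log2 fold change of 0.57. The shares of all tested genes were 33.5% and 33%. H3f3b, a gene for H3.3, stood at 1953 ± 49.6 in WT and 3011 ± 163 in Vps15LKO, and H2afz at 527 ± 32.0 and 792 ± 74.3, both called higher. H2afx, whose transcript also holds the stem-loop letters, was called higher at 363 ± 96.6 and 530 ± 54.6. The linker variant H1f0 was called lower, at 2967 ± 158 and 1968 ± 257, as was H2afy, while H3f3a was not called.

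Among 20 histone chaperones, 8 were called higher and 2 lower (18 and 0 under total-read scaling), with a median of 0.07. For this list and the S phase list, the shares of all tested genes were again 33.5% and 33%. Npm1 (1839 ± 175 and 2790 ± 326) and Rbbp7 were higher, and Hjurp (2651 ± 184 and 1723 ± 40.9) and Rbbp4 were lower. Of 24 genes of DNA replication and S phase, 19 were called higher and 1, Tk1, lower (0 lower under total-read scaling), with a median of 1.05. Pcna, the sliding clamp, stood at 367 ± 52.7 in WT and 690 ± 38.5 in Vps15LKO, and the helicase subunit Mcm7 at 267 ± 6.50 and 482 ± 26.6. Gins2 was not called.

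**Figure D5:**
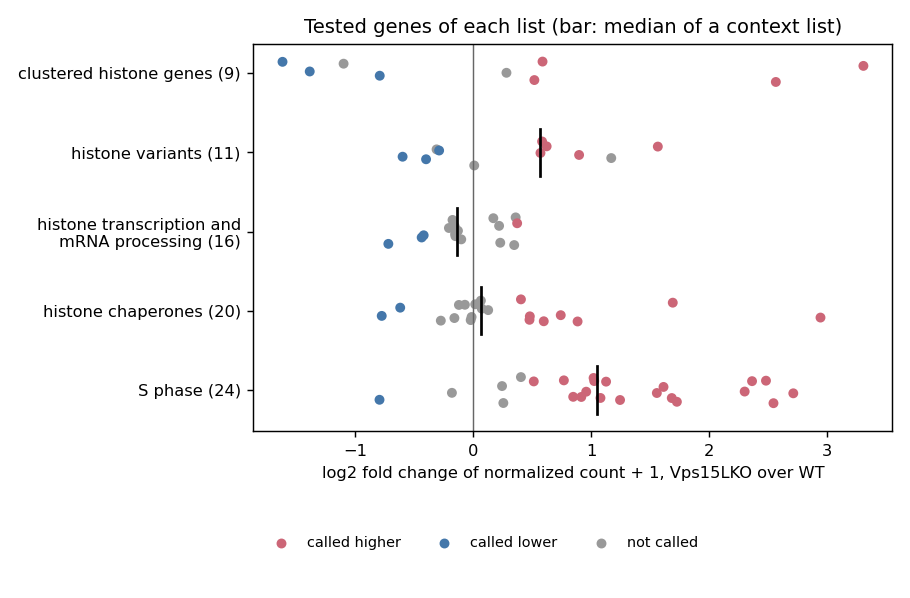
Each point is the log2 fold change (Vps15LKO over WT) of a tested gene, in red where called higher, blue where called lower and grey where not called, and black bars are medians of the context lists. The 9 clustered histone genes spread from -1.62 to 3.31, and 19 of 24 S phase genes are red, where 33.5% of all tested genes were called higher.

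Marker RNA of the cell types in liver also differed between the genotypes. The numbers of markers called are to be read beside the 33.5% of all tested genes called higher and the 33% called lower. Summed normalized counts of 6 hepatocyte markers ranged from 2892100 to 3181440 in WT and from 925184 to 1374410 in Vps15LKO, with 4 called lower. Sums were higher in Vps15LKO for macrophage (6 markers, 5 called higher), T and NK cell (4 of 4), stellate cell (6 of 6) and cholangiocyte (5 of 5) markers. They were also higher for B and plasma cell markers (2 of 3 tested) and neutrophil markers (2 of 2 tested), while of 5 endothelial markers 2 were called higher and 3 lower. The 4 T and NK cell markers, for example, summed to 30.5 to 37.5 in WT and 167 to 195 in Vps15LKO. The 6 erythroid markers summed to 2714 to 2976 in WT and 354 to 438 in Vps15LKO. No marker of these lists was at 0 in every liver. The part of cell makeup in the members' values was not tested.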

How the data were processed

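RNA was measured in 6 livers, 3 WT and 3 Vps15LKO, grouped by the genotype in the labels. The authors enriched poly(A) RNA with oligo-dT beads, sequenced DNBSEQ libraries, aligned reads to GRCm38 (mm10) with HISAT2 and counted them with featureCounts (Subread). Versions and the settings for strand and multiple matches are not given in the sources used here. The deposited values are a signal, reads per gene divided by DESeq2 size factors. Whole reads could be recovered from them (tolerance 0.01), 16137093 to 18110223 per liver. No column of another sample was present. The paper states that breeding aimed at both genotypes within a litter, but nothing says which of these mice were paired. Replicates differed by more than counting error, so none was a repeated library. P-values measure the spread between these mice.

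The members and context lists were chosen with earlier results of these data known. Symbols came from GENCODE M21, which matched 55141 genes. Tested were genes that reached 20 normalized counts in 3 or more livers, with limma 3.58.1 (trend) in R 4.3.3 on log2(normalized count + 1), so changes of low genes are understated, with Benjamini-Hochberg adjustment over 15430 genes. Calls needed an adjusted p below 0.05 and a 1.2-fold change or more. Alternatives used edgeR 4.0.16 and DESeq2 1.42.0 on recovered reads, other scalings, filters, pseudocounts and left-out livers. The fit was tested on simulated data. Named genes were every member of interest. In each class the 4 of highest level were given with statistics, or with reads alone where below both filters. Statistics were also given for members outside Hist1 that passed the filter and for the extremes of fold change. In each context list the named genes were the 4 of highest level plus Slbp, Npat, H2afx, H2afz and H3f3b. Other genes named were singled out after their values were seen. Zcchc6 had no row and Rn7sk represents its list. Motifs and stem-loops were exact matches to letters.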

Additional observations from a re-analysis of the deposited data

How the results depend on the processing

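Depth limits 45 of the 67 members, and the counting of shared and overlapping reads limits most H2A genes. The members called were 4 higher and 3 lower. Higher calls numbered 2 with 20 normalized counts in every liver, with upper-quartile scaling, with quantile normalization, without a trend and with a fold of at least 2, and 2 to 4 when 1 liver was left out. Lower calls numbered 1 with 20 in every liver, 5 with quantile normalization, 1 with total-read scaling and 5 with edgeR and a mean of at least 5 (chosen after seeing the data), and 3 to 4 when 1 liver was left out. Requiring 20 in every liver leaves fewer genes to test, and for the rest the cause was not tested.

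Under total-read scaling, which raises Vps15LKO values, 10300 of all genes were higher and 1712 lower, 10 and 0 of the histone variants, 15 and 0 of the processing factors, 18 and 0 of the chaperones, and 0 S phase genes were lower. With a fold of at least 2 these counts were 3228 and 1957 of all genes, 1 and 0 variants, 0 and 0 processing factors, 2 and 0 chaperones, and 0 S phase genes lower. Higher processing factors numbered 0 with upper-quartile scaling and 2 with limma voom, and 0 to 2 when 1 liver was left out. Quantile normalization gave 2 lower S phase genes. Rn7sk was not called (0 genes) with 20 in every liver or quantile normalization, and 0 to 1 were called when 1 liver was left out. Lower variants ranged from 1 to 4 when 1 liver was left out. The ratio of summed member counts, 0.864, turned to 1.42 with total-read scaling and to 1.44 over the 12 members with under 10% of their windows in another member (without Hist1h2bc, and with Hist1h1c, whose groups overlap, as 81.9% of the WT and 82.3% of the Vps15LKO sum), and was 0.809 to 0.943 when 1 liver was left out. Hist2h2be turned to -0.98 and was called lower under quantile normalization, lay between -0.0049 (without WT replicate 2) and 0.52 when 1 liver was left out, and was called higher at 0.97 under total-read scaling.

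Replicate numbers gave no sign of pairing, as deviations of livers with the same number correlated at -0.0099, -0.011 and 0.049. Such values cannot show whether mice were littermates or were handled together. With the replicate number as a block, the members called stayed at 4 and 3, and all 23 results kept their side of the threshold.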

Other observations

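The H2A pseudogene Hist1h2al lies outside the rule because it is not annotated as protein-coding. Its normalized counts were 150, 114 and 111 in WT and 34.4, 26.7 and 29.0 in Vps15LKO, a log2 fold change of -2.01 ± 0.19 (SE, n = 3 per group, limma, adjusted p = 3.6e-05). It was chosen after its values were seen. The fall lay in the opposite direction to the values of Hist1h2ao and Hist1h2ap, H2A genes of the same cluster.

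On the opposite strand of the Hist2 genes, 2 antisense transcripts had reads in every liver. Gm20633, which overlaps Hist2h2aa1, had 88, 66 and 72 reads in WT and 48, 73 and 49 in Vps15LKO, and Gm20632, which overlaps Hist2h2aa2, had 39, 42 and 72 in WT and 43, 50 and 38 in Vps15LKO. Without a stated strand setting, reads of the strands cannot be told apart.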
